A study of Mus musculus with 16 samples.

Results

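The genes described here are 41 genes of focal adhesions and the actin cytoskeleton, measured by RNA sequencing in cultured mouse cardiac fibroblasts. They were listed by symbol as known parts of the adhesion plaque, its actin bundles and the linked caveola and intermediate filament systems, and all 41 were found in the count table of 55414 Ensembl gene identifiers. All 41 also passed the filter on low counts, which left 15285 genes to test. The study was designed to delete Has2, a gene for making the matrix polysaccharide hyaluronan, in fibroblasts with and without transforming growth factor beta (TGF-beta). Cells received an adenovirus for Cre recombinase, meant to remove exon 2 of Has2, or for green fluorescent protein (GFP) as the control. Cells under each virus were studied with and without TGF-beta. This gave 4 groups of 4 libraries, the GFP and the Cre group and, for each, a group with TGF-beta.

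All groups shared the same handling, per the labels' protocols. The fibroblasts, described there as Has2fl/fl and used at P2, were starved of serum for 24 h, exposed to virus for 5 h, given fresh medium and collected after 48 h of stimulation. Every library is labelled with the genotype Wild Type C57BL/6J, which differs from the Has2fl/fl of the protocol, and the labels do not settle it. A dose of 20 ng/mL is given for bFGF, basic fibroblast growth factor, and TGF-beta in the same phrase, so what the cells without TGF-beta received is not clear from it. The age of the mice, the number of hearts behind each preparation and the efficiency of the virus are not given in the labels. A replicate number stands for 1 preparation of cells, named in the library codes, so each of the 4 preparations is present once in every group. Preparations 1 and 4 were male and 2 and 3 female.

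A focal adhesion is the plaque where integrins, the receptors for extracellular matrix, are tied through adaptor proteins to bundles of actin filaments. Talin and kindlin bind the integrin tail, vinculin binds talin and actin in turn, zyxin is held in the plaque through alpha-actinin, and alpha-actinin and filamin crosslink the filaments into stress fibres. In the heart, TGF-beta drives fibroblasts towards contractile myofibroblasts, whose stress fibres and adhesions are large. Serum response factor (SRF), itself 1 of the 41 genes, is the transcription factor that reads the actin state through its MRTF cofactors and binds the CArG box found before many cytoskeletal genes.

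Library totals ranged from 17.9 to 48.7 M counts. Preparation 4 stood apart from the others in all 4 groups, lying apart on the second principal component (20.3% of the variance), and there the 10 top genes held 6.88% to 7.34% of the counts, against 10.3% to 12.1% elsewhere. Has2 itself measured 18.7 ± 3.27 counts per 1 M counts (CPM, mean ± SD of 4 libraries) under the GFP virus and 14.7 ± 1.38 under the Cre virus, a log2 difference of -0.35 ± 0.26 (SE) that did not pass the test. With TGF-beta, Has2 measured 16.8 ± 5.67 and 16.5 ± 6.32 CPM under the GFP and Cre viruses. These are counts over the whole gene and cannot show whether exon 2 was lost. Of 8 cardiomyocyte markers, Actc1 and Pln were at 0 in all 16 libraries and Myh6 in all 12 outside the Cre group. The other 5 were detected, and Tnnt2, the highest of them, measured 11 ± 5.29 CPM in GFP cells, 13.6 ± 6.73 in Cre cells, and 4.14 ± 1.29 and 6.07 ± 3.88 with TGF-beta. All 8 fibroblast markers were detected.

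The groups are compared on log2 scale, as the group with TGF-beta minus the group without, or Cre minus GFP. Values are CPM after TMM scaling, which compares a gene between libraries. Where levels of different genes are compared, they are per kilobase of exon (RPKM). Calls are at an adjusted p under 0.05 in edgeR's quasi-likelihood test (Benjamini-Hochberg over the 15285 genes), with all 16 libraries in 1 fit. The same test with the preparation as a block is named where it changed a call.

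In resting GFP cells the levels of the 41 genes spanned a wide range per length. Vim, the intermediate filament protein of mesenchymal cells, was the highest at 1070 ± 29.4 RPKM (SD, n = 4). Tpm4, a tropomyosin that coats non-muscle actin filaments, followed at 448 ± 67.5 RPKM, apart from Vim by more than the spread of either. Cavin1, Actn1 and Flna came next at 202 ± 25, 194 ± 19.5 and 171 ± 20.8 RPKM, and neighbours among these 3 differed by less than the sum of their SDs. At the low end stood 4 genes. Lims2 measured 1.17 ± 0.237 RPKM, Synpo2 0.955 ± 0.293, Des 0.279 ± 0.116 and Ldb3 0.229 ± 0.0364, where Lims2 and Synpo2, and likewise Des and Ldb3, lay within their spread of each other. Desmin is the intermediate filament protein of muscle cells, and Ldb3 encodes a protein of the muscle Z-disc.

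TGF-beta raised 23 of the 41 genes and lowered 3 in GFP cells, and 15 did not pass the test. Among all genes tested in that comparison, 13.8% were called higher and 15.3% lower. In Cre cells it raised 24, lowered 3 and left 14 that did not pass, where 14% of all genes were called higher and 16.3% lower. The raised share of the 41 genes was thus above that of all genes and the lowered share below it, under both viruses. The genes raised in both were the same 23, against 11.6% of all genes, and those lowered in both the same 3, against 13.4%. The median log2 response of the 41 genes was 0.48 in GFP cells and 0.45 in Cre cells, and over all genes tested it was -0.02 and 0.02. The 41 genes together took 1.83% ± 0.05 of each GFP library's counts (SD, n = 4) and 2.25% ± 0.09 with TGF-beta. In Cre cells the shares were 1.82% ± 0.07 and 2.18% ± 0.17. Libraries with and without TGF-beta did not overlap for 23 genes that were higher and 4 that were lower in GFP cells, where 15.1% and 14.7% of all genes were so separated. In Cre cells the counts were 18 and 3, against 12.5% and 15.8% of all genes. In bulk RNA, fewer cells of a type and less RNA per cell cannot be told apart.

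Markers of cell types moved in the same comparison. Of 8 fibroblast markers, 6 were called lower with TGF-beta under each virus and 0 higher. With the preparation as a block, 2 were called higher and 6 lower in GFP cells, and 1 and 6 in Cre cells. Col1a1 went from 9665 ± 2987 to 17430 ± 5901 CPM in GFP cells, and Col1a2 from 9683 ± 2581 to 11550 ± 3466. Pdgfra, a growth factor receptor, went from 952 ± 175 to 148 ± 45.2 CPM in GFP cells, and Thy1, a surface glycoprotein, from 905 ± 241 to 219 ± 49.3. The summed level of the 8, most of it the collagens Col1a1 and Col1a2, ranged from 13700 to 26700 CPM in GFP cells and from 15700 to 36500 with TGF-beta, and from 12800 to 25100 and 13100 to 32600 in the Cre groups. Of 7 smooth muscle and pericyte markers, 1 was called higher and 3 lower under each virus. With the block 2 were called higher and 4 lower in GFP cells, and 2 and 5 in Cre cells. By sign alone, 2 of the 7 were higher and 5 lower in GFP cells. Cspg4, the pericyte proteoglycan NG2, went from 11.3 ± 2.60 to 69.3 ± 17.3 CPM in GFP cells. Notch3, the highest of the 7 without TGF-beta, went from 120 ± 41.3 to 32 ± 16.4 CPM there, and Mcam from 44.8 ± 13.7 to 43.2 ± 12.1. The sum of the 7 ranged from 106 to 218 CPM in GFP cells and 99.3 to 183 with TGF-beta, and from 94.4 to 188 and 77.2 to 153 in the Cre groups. The part of these markers' cells in the responses of the 41 genes was not tested.

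**Figure D1:**
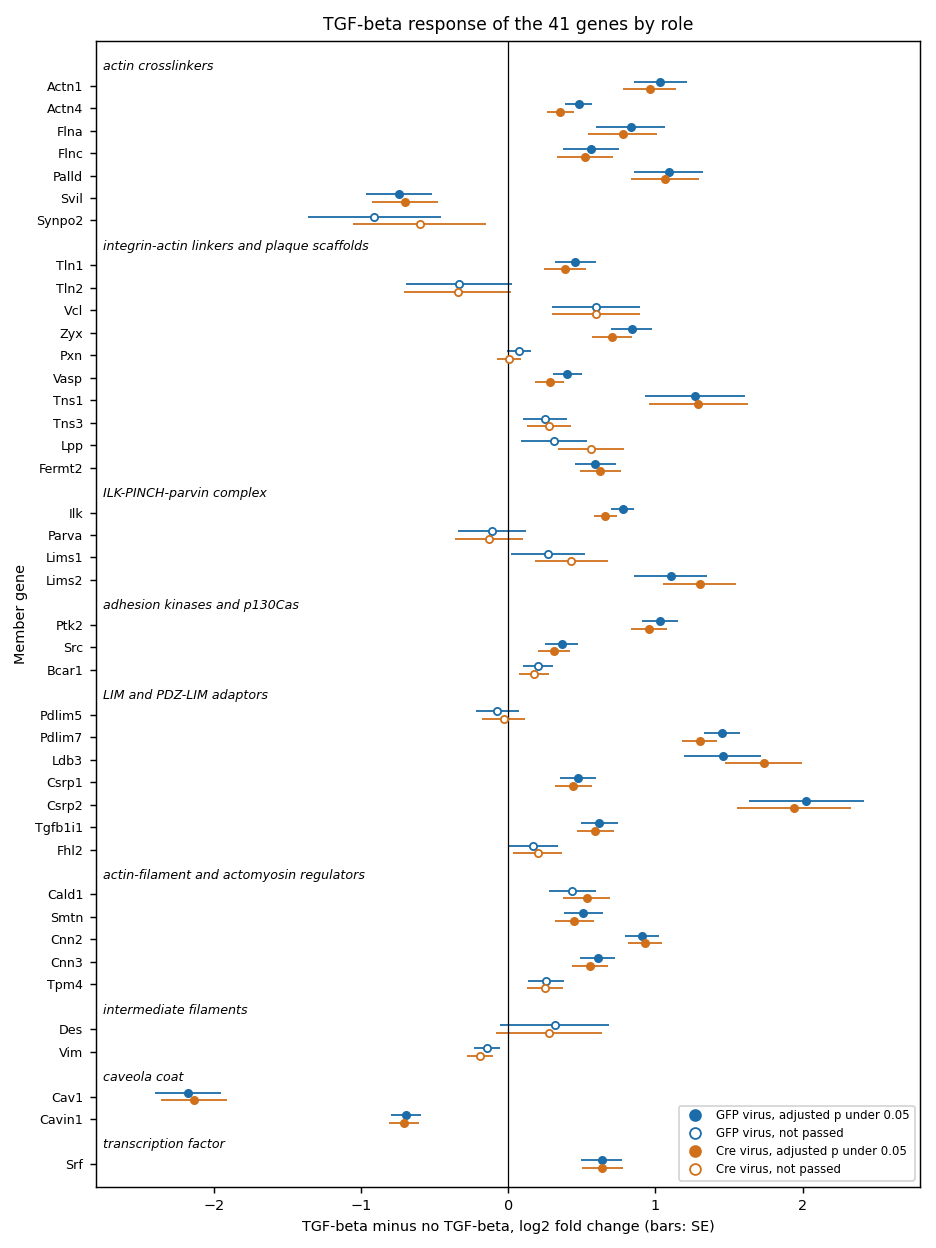
Log2 response to TGF-beta of each of the 41 genes, grouped by role, in GFP and in Cre cells, with the standard error as bars and filled points for genes that passed the test. Genes raised under both viruses fill most role groups, and Cav1, at -2.17 in GFP cells, is the lowest.

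The actin crosslinkers were the first group, with 5 of 7 raised and 1 lowered under each virus. Actn1, the alpha-actinin of stress fibres and adhesion plaques, measured 973, 1171, 1160 and 984 CPM in GFP libraries 1 to 4 and 2375, 2512, 2316 and 1579 with TGF-beta. In Cre libraries 1 to 4 Actn1 measured 932, 1119, 1153 and 902 CPM, and 2250, 2223, 2220 and 1296 with TGF-beta. No library with TGF-beta overlapped those without, although preparation 4 gave the smallest rise under both viruses. The Actn1 response was 1.03 ± 0.18 in GFP cells (log2, SE, adjusted p = 0.00058) and 0.96 ± 0.18 in Cre cells (adjusted p = 0.000982). Palld, the crosslinker palladin, which also docks actinin and VASP, measured 166, 221, 200.1 and 190.1 CPM in GFP cells and 509, 438, 458 and 247 with TGF-beta. Its Cre libraries measured 163, 212, 193 and 163 CPM without and 479, 384, 446 and 222 with TGF-beta. Preparation 4 again held the lowest value with TGF-beta, yet above every library without it. The Palld response was 1.09 ± 0.23 in GFP cells (adjusted p = 0.00247) and 1.07 ± 0.23 in Cre cells (adjusted p = 0.00282).

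Actn4, the second non-muscle actinin, responded less than Actn1. It measured 549.9, 658, 671 and 654 CPM in GFP cells and 874, 915, 889 and 854 with TGF-beta, and under the Cre virus 555, 636, 695 and 632 without it and 813, 774, 873 and 759 with it. The libraries did not overlap under either virus, and the response was 0.48 ± 0.09 in GFP cells (adjusted p = 0.00123) and 0.35 ± 0.09 in Cre cells (adjusted p = 0.00924). Flna, the ubiquitous filamin that crosslinks actin and binds integrin tails, rose by 0.83 ± 0.23 in GFP cells (adjusted p = 0.0142) and 0.78 ± 0.23 in Cre cells (adjusted p = 0.0201). In Cre cells the Flna call was lost without Cre library 1, or without library 1 or 3 of the Cre group with TGF-beta (adjusted p = 0.0571 to 0.0648). Flnc, the filamin best known from striated muscle, rose from 307 ± 46.9 to 452 ± 45.5 CPM in GFP cells (SD, n = 4; adjusted p = 0.0371) and from 272 ± 66.7 to 390.3 ± 89.8 in Cre cells (adjusted p = 0.0489). With the preparation as a block Flnc was called higher under both viruses. Without the block, both Flnc calls lay near the threshold and depended on single libraries. In GFP cells the call was lost without library 1 or 4 of the GFP group, or 1, 2 or 3 of the GFP group with TGF-beta (adjusted p = 0.0634 to 0.0908). In Cre cells it was lost without any of 10 of the 16 libraries, namely GFP 1 and 2, Cre 1 and 4, and libraries 1, 2 and 3 of both groups with TGF-beta (adjusted p = 0.0568 to 0.148).

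Svil, encoding supervillin, a membrane-bound actin and myosin binding protein, was the crosslinker that fell. It measured 119, 90.2, 99.6 and 73 CPM in GFP cells and 59.2, 64.1, 63.6 and 41.1 with TGF-beta, and under the Cre virus 95.9, 78.6, 87.2 and 60.9 without it and 56.6, 56, 57.3 and 28.2 with it. The groups did not overlap under either virus, and within every preparation the library with TGF-beta was the lower. The Svil response was -0.74 ± 0.22 in GFP cells (adjusted p = 0.0213) and -0.70 ± 0.22 in Cre cells (adjusted p = 0.0274). The first call was lost without GFP library 1 or library 4 of the GFP group with TGF-beta (adjusted p = 0.0643 to 0.0772). The second was lost without Cre library 1, 2 or 3 or without library 4 of the Cre group with TGF-beta (adjusted p = 0.0505 to 0.0859). Synpo2, a myopodin that bundles actin in muscle Z-discs, had a response of -0.91 ± 0.45 in GFP cells that did not pass (adjusted p = 0.15), and -0.60 ± 0.45 in Cre cells (adjusted p = 0.329). With the preparation as a block Synpo2 was called lower in both (log2 -0.98 ± 0.24, adjusted p = 0.00341, and -0.76 ± 0.23, adjusted p = 0.0141).

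Among the 10 integrin-actin linkers and plaque scaffolds, 5 rose under each virus and none fell. Tns1, a tensin that ties integrin tails to actin in fibrillar adhesions, had the largest response of this group. It measured 504, 535, 546 and 309.7 CPM in GFP cells and 1281, 1441, 1276 and 565 with TGF-beta, and under the Cre virus 403, 484, 491 and 261 without it and 1199, 1141, 1233 and 439 with it. Preparation 4 was the lowest in all 4 groups, and in Cre cells its library with TGF-beta lay within the range of those without. The Tns1 response was 1.27 ± 0.34 in GFP cells (adjusted p = 0.0104) and 1.29 ± 0.34 in Cre cells (adjusted p = 0.00931). Zyx, encoding zyxin, which moves along stress fibres to sites of strain, measured 204, 318, 281 and 306 CPM in GFP cells and 467, 490.4, 501 and 524 with TGF-beta. Under the Cre virus Zyx measured 231, 322, 308 and 306 CPM without TGF-beta and 473, 414, 498 and 515 with it. Preparation 1 was the lowest without TGF-beta under both viruses and had the largest rise. The Zyx response was 0.84 ± 0.14 in GFP cells (adjusted p = 0.000312) and 0.70 ± 0.14 in Cre cells (adjusted p = 0.00125).

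Tln1, the talin that activates integrins and links them to actin, measured 772, 849, 938 and 766 CPM in GFP cells and 1128, 1161, 1204 and 1071 with TGF-beta. Under the Cre virus Tln1 measured 662, 804, 896 and 652 CPM without TGF-beta and 1040, 976, 1193 and 732 with it. The GFP groups did not overlap, while the Cre groups did, through preparation 4. The Tln1 response was 0.46 ± 0.14 in GFP cells (adjusted p = 0.024) and 0.39 ± 0.14 in Cre cells (adjusted p = 0.05), the second at the threshold. Without GFP library 1 or 4, or library 2 or 3 of the GFP group with TGF-beta, the call in GFP cells was lost (adjusted p = 0.0518 to 0.0723). In Cre cells it was lost without any of 12 libraries, namely all but GFP 3 and 4, Cre 3 and Cre with TGF-beta 4 (adjusted p = 0.0541 to 0.15). Vasp, an Ena/VASP protein that speeds actin filament growth and binds zyxin, rose by 0.40 ± 0.10 in GFP cells (adjusted p = 0.00662) and 0.28 ± 0.10 in Cre cells (adjusted p = 0.0426). The Vasp call in Cre cells was lost without any of 7 libraries, which were GFP 2, Cre 1 and 2, libraries 2 and 3 of the GFP group with TGF-beta and 3 and 4 of the Cre group with it (adjusted p of at least 0.0513). Fermt2, the kindlin of fibroblasts, which binds integrin beta tails beside talin, rose by 0.59 ± 0.14 in GFP cells (adjusted p = 0.00513) and 0.63 ± 0.14 in Cre cells (adjusted p = 0.0034).

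Of the 5 linkers not called under either virus, Vcl and Tns3 were called higher under both once the preparation was a block. Vcl, encoding vinculin, which reinforces the bond of talin to actin under load, averaged 314 ± 59.7 CPM in GFP cells and 474 ± 125 with TGF-beta. Its 4 preparations each had the higher value with TGF-beta, but preparation 4 lay far below the others. The Vcl response was 0.59 ± 0.30 in GFP cells (adjusted p = 0.153), and with the block 0.56 ± 0.13 (adjusted p = 0.00187). In Cre cells the values were 0.60 ± 0.30 (adjusted p = 0.142) and, with the block, 0.54 ± 0.13 (adjusted p = 0.00243). Without library 4 of the Cre group with TGF-beta, Vcl passed there also with no block (adjusted p = 0.0167). Tns3, a further tensin, measured 311, 296, 304 and 226 CPM in GFP cells and 356, 336, 330.2 and 330.1 with TGF-beta, and under the Cre virus 248, 284, 281 and 185 without it and 339, 292, 342 and 238 with it. Its groups did not overlap in GFP cells and overlapped in Cre cells. The Tns3 response was 0.25 ± 0.15 in GFP cells (adjusted p = 0.225, with the block 0.0237) and 0.28 ± 0.15 in Cre cells (adjusted p = 0.168, with the block 0.0176).

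Pxn, encoding paxillin, a scaffold that recruits kinases to the plaque, was the flattest of the linkers. It measured 117, 125, 114 and 106 CPM in GFP cells and 120.2, 123, 117 and 127 with TGF-beta, and under the Cre virus 109.8, 122, 107 and 103 without it and 118, 103, 116 and 107 with it. All 4 groups overlapped, with responses of 0.08 ± 0.08 (adjusted p = 0.524) and 0.01 ± 0.08 (adjusted p = 0.964). The interval of the Pxn response was -0.10 to 0.25 in GFP cells and -0.17 to 0.18 in Cre cells (log2, 95%). Tln2, the second talin, had responses of -0.33 ± 0.36 and -0.34 ± 0.36 that did not pass (adjusted p = 0.533 and 0.497), and with the block was called lower in both (adjusted p = 0.018 and 0.0105). With the block, the 2 talins thus moved in opposite directions. Lpp, a zyxin-family LIM protein, had responses of 0.31 ± 0.22 (adjusted p = 0.319) and 0.56 ± 0.22 (adjusted p = 0.0685). In Cre cells Lpp was called higher with the block (adjusted p = 0.0201), and with no block when library 4 of either group with TGF-beta was left out (adjusted p = 0.0149 to 0.0488).

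In the complex of integrin-linked kinase, PINCH and parvin, which couples the beta integrin tail to actin, 2 of 4 genes rose under each virus. Ilk, its pseudokinase core, measured 171, 194, 184 and 178 CPM in GFP cells and 302, 317, 307 and 322 with TGF-beta, and under the Cre virus 181, 201, 184 and 186 without it and 299.8, 274, 285 and 326 with it. The libraries of a group lay close together and the groups were far apart, in preparation 4 as in the others. The Ilk response was 0.78 ± 0.08 in GFP cells (adjusted p = 4.13e-06) and 0.66 ± 0.08 in Cre cells (adjusted p = 1.84e-05). The 2 PINCH genes differed in level and response. Lims2, encoding PINCH2, was low, at 3.83, 4.36, 3.44 and 2.64 CPM in GFP cells and 9.93, 8.67, 8.01 and 4.2 with TGF-beta, and under the Cre virus 2.56, 4.12, 3.5 and 2.85 without it and 9.24, 6.48, 9.05 and 7.33 with it. Its GFP groups touched, since preparation 4 with TGF-beta lay below 1 library without, and its Cre groups were apart. The Lims2 response was 1.10 ± 0.25 in GFP cells (adjusted p = 0.00377) and 1.30 ± 0.25 in Cre cells (adjusted p = 0.00109). Lims1, encoding PINCH1, averaged 14.2 ± 4.94 RPKM in GFP cells and had responses of 0.27 ± 0.25 and 0.43 ± 0.25 that did not pass (adjusted p = 0.451 and 0.203). Parva, encoding alpha-parvin, which binds actin for the complex, had responses of -0.11 ± 0.23 and -0.13 ± 0.23 that did not pass either (adjusted p = 0.768 and 0.697).

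Both adhesion kinases rose. Ptk2, encoding focal adhesion kinase, measured 81.7, 74.3, 92.5 and 101 CPM in GFP cells and 176, 161, 180.1 and 196 with TGF-beta, and under the Cre virus 76.1, 79.1, 108 and 93.1 without it and 171, 156, 183 and 182 with it. Every library with TGF-beta was above every library without it, under both viruses. The Ptk2 response was 1.03 ± 0.12 in GFP cells (adjusted p = 2.1e-05) and 0.96 ± 0.12 in Cre cells (adjusted p = 3.99e-05). Src, the kinase that focal adhesion kinase recruits, rose less, by 0.36 ± 0.11 in GFP cells (adjusted p = 0.0215) and 0.31 ± 0.11 in Cre cells (adjusted p = 0.0422). The Src call in GFP cells was lost without GFP library 1, or library 2 or 3 of the GFP group with TGF-beta (adjusted p = 0.056 to 0.0603). In Cre cells it was lost without any of 10 libraries, which were GFP 1, Cre 1, 3 and 4, and libraries 1, 2 and 3 of both groups with TGF-beta (adjusted p = 0.0515 to 0.117). Bcar1, encoding p130Cas, a substrate of both kinases that senses stretch, had responses of 0.20 ± 0.10 and 0.17 ± 0.10 that did not pass (adjusted p = 0.151 and 0.211), the first called higher with the block (adjusted p = 0.0451).

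The LIM and PDZ-LIM adaptors, which tether proteins to actinin and the filaments, held the 3 largest rises of the 41 genes in GFP cells, and 5 of 7 rose under each virus. Csrp2, a cysteine- and glycine-rich LIM protein known from smooth muscle, measured 41.6, 105, 49.9 and 31.8 CPM in GFP cells and 254, 301, 236 and 139 with TGF-beta. Under the Cre virus Csrp2 measured 52.3, 109.5, 45.2 and 43 CPM without TGF-beta and 251, 330, 200.3 and 179 with it. Preparation 2 was well above the rest without TGF-beta and rose least, and the groups still did not overlap. The Csrp2 response was 2.03 ± 0.39 in GFP cells (adjusted p = 0.00123), a 4.07-fold rise, and 1.94 ± 0.39 in Cre cells (adjusted p = 0.00161). Ldb3, encoding the PDZ-LIM protein Cypher of striated muscle Z-discs, was the lowest of the 41 genes per length and still rose. It measured 1.47, 1.48, 1.07 and 1.57 CPM in GFP cells and 4.8, 4.36, 3.63 and 2.6 with TGF-beta, and under the Cre virus 0.758, 1.17, 1.56 and 1.2 without it and 5.35, 3.09, 3.36 and 3.73 with it. All libraries with TGF-beta were above those without, on 23 to 57 reads per library without TGF-beta and 62 to 165 with it. The Ldb3 response was 1.46 ± 0.26 in GFP cells (adjusted p = 0.000702) and 1.74 ± 0.26 in Cre cells (adjusted p = 0.000151).

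Pdlim7, the PDZ-LIM protein Enigma, which binds tropomyosin and actinin, measured 74.1, 111, 92.8 and 85.9 CPM in GFP cells and 249.8, 274, 248 and 223 with TGF-beta. Under the Cre virus Pdlim7 measured 82.6, 110.5, 97.5 and 101 CPM without TGF-beta and 242, 245, 229 and 249 with it. Its groups were separated by more than the whole range within any of them. The Pdlim7 response was 1.45 ± 0.12 in GFP cells (adjusted p = 8.35e-07) and 1.30 ± 0.12 in Cre cells (adjusted p = 1.85e-06), the smallest adjusted p of the 41 genes under both viruses. Its relative Pdlim5, encoding ENH, had responses of -0.07 ± 0.15 and -0.03 ± 0.15 (adjusted p = 0.747 and 0.898), with 95% intervals of -0.38 to 0.24 and -0.34 to 0.28. Csrp1, the ubiquitous relative of Csrp2, rose by 0.48 ± 0.12 in GFP cells (adjusted p = 0.00941) and 0.44 ± 0.12 in Cre cells (adjusted p = 0.0141). Tgfb1i1, encoding Hic-5, a paxillin relative named for its induction by TGF-beta, rose by 0.62 ± 0.12 (adjusted p = 0.00165) and 0.59 ± 0.12 (adjusted p = 0.00225), whereas paxillin itself did not pass. Fhl2, a LIM-only protein abundant in heart, had responses of 0.17 ± 0.16 and 0.20 ± 0.16 that did not pass (adjusted p = 0.475 and 0.374), the second called higher with the block (adjusted p = 0.0207).

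Among the 5 regulators of actin filaments and actomyosin, 3 rose in GFP cells and 4 in Cre cells. Cnn2, a non-muscle calponin that binds actin and myosin, measured 249.5, 342, 311 and 307 CPM in GFP cells and 593, 629.7, 570.4 and 479 with TGF-beta, and under the Cre virus 252, 325, 299 and 318 without it and 585, 581, 557 and 549.6 with it. No groups with and without TGF-beta overlapped. The Cnn2 response was 0.91 ± 0.11 in GFP cells (adjusted p = 3.16e-05) and 0.93 ± 0.11 in Cre cells (adjusted p = 2.53e-05). Cnn3, the other non-muscle calponin, rose by 0.61 ± 0.12 (adjusted p = 0.00142) and 0.56 ± 0.12 (adjusted p = 0.00265). Smtn, encoding smoothelin, an actin-binding protein of contractile smooth muscle, rose by 0.51 ± 0.13 (adjusted p = 0.00829) and 0.45 ± 0.13 (adjusted p = 0.0168), the second lost without Cre library 1 or 2 (adjusted p = 0.0523 to 0.0548).

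Cald1, encoding caldesmon, which damps actomyosin and stabilises filaments, was called in Cre cells without the block for preparation and in both with it (adjusted p = 0.0208 in GFP cells and 0.00565 in Cre cells). The difference of the responses was not called (log2 0.10 ± 0.23, adjusted p = 1). Its GFP libraries measured 1415, 1234, 1378 and 1496 CPM, and 2222, 1859, 2008 and 1386 with TGF-beta. Its Cre libraries measured 1401, 1283, 1503 and 1442 CPM, and 2210, 2288, 2258 and 1390 with TGF-beta. In preparations 1 to 3 the values with TGF-beta were above all without, and preparation 4 was the exception under both viruses. The Cald1 response was 0.44 ± 0.16 in GFP cells (adjusted p = 0.0539) and 0.53 ± 0.16 in Cre cells (adjusted p = 0.021). It passed in GFP cells without library 4 of either group with TGF-beta (adjusted p = 0.0132 to 0.015). In Cre cells it did not pass without Cre library 1 or 2, or library 1, 2 or 3 of the Cre group with TGF-beta (adjusted p = 0.0509 to 0.0635). Nor did it pass there in the fit on only the libraries compared, or with the block and without preparation 2. Tpm4, the abundant tropomyosin, showed the same exception in Cre cells. In GFP cells its libraries reached 1200 CPM without TGF-beta and ranged from 1066 to 1277 with it. Its responses were 0.26 ± 0.12 and 0.25 ± 0.12 and did not pass (adjusted p = 0.131 and 0.135), the first passing without GFP library 4 (adjusted p = 0.0355).

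Neither intermediate filament gene was called. Vim measured 5179, 5032, 5192 and 4897 CPM in GFP cells and 4313, 4546, 4719 and 4829 with TGF-beta, and under the Cre virus 5469, 4964, 5485 and 5091 without it and 4284, 4492, 4525 and 5097 with it. In GFP cells every library with TGF-beta was below every one without, by a small margin, and in Cre cells preparation 4 overlapped. The Vim response was -0.14 ± 0.09 in GFP cells (adjusted p = 0.252) and -0.19 ± 0.09 in Cre cells (adjusted p = 0.113). In Cre cells Vim was called lower with the block (adjusted p = 0.0316), and with no block when library 4 of the Cre group with TGF-beta was left out (adjusted p = 0.0434). Des averaged 1.05 ± 0.437 CPM in GFP cells and 1.29 ± 0.463 with TGF-beta, a difference within the spread (adjusted p = 0.566).

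The caveola coat genes fell. Caveolae are small pits of the membrane that flatten under stretch, and Cav1 encodes their integral coat protein. Cav1 measured 109.5, 60.7, 96.9 and 96 CPM in GFP cells and 16.3, 18.6, 26.2 and 19.4 with TGF-beta, and under the Cre virus 95.9, 55.1, 105 and 80.9 without it and 16.5, 19.6, 23.5 and 17 with it. The highest library with TGF-beta was below the lowest without under both viruses, and the fall was seen in every preparation. The Cav1 response was -2.17 ± 0.22 in GFP cells (adjusted p = 5.31e-06), a 4.51-fold fall, and -2.14 ± 0.22 in Cre cells (adjusted p = 5.79e-06), the largest fall of the 41 genes. Cavin1, the cytoplasmic coat protein that stabilises caveolae, measured 785, 776, 747 and 593 CPM in GFP cells and 441, 468, 467 and 419 with TGF-beta. Under the Cre virus Cavin1 measured 810, 709.6, 765 and 647 CPM without TGF-beta and 441, 442, 466 and 444 with it. These groups did not overlap either, and the response was -0.69 ± 0.10 in GFP cells (adjusted p = 0.000117) and -0.71 ± 0.10 in Cre cells (adjusted p = 9.23e-05). Cav1 and Cavin1 are abundant in endothelial cells as well as fibroblasts. The summed level of 7 endothelial markers, all 7 tested, ranged from 36.7 to 48.3 CPM in GFP cells and from 19.2 to 28.8 with TGF-beta, and from 35.1 to 48.4 and 19.0 to 22.9 in the Cre groups. Of the 7, 2 were called lower under each virus, and with the block 3 in GFP cells and 4 in Cre cells. Tek, an angiopoietin receptor, made up most of the fall in the sum, from 17.8 ± 2.99 to 3.83 ± 0.97 CPM in GFP cells, while Cdh5 measured 11.8 ± 3.49 and 8.81 ± 2.42 CPM and Egfl7 4.61 ± 0.98 and 4.93 ± 0.74. The part of endothelial cells in the fall of the caveola genes was not tested. Of 8 macrophage markers, all tested, the sum ranged from 678 to 1460 CPM in GFP cells and 430 to 925 with TGF-beta, and from 585 to 1570 and 406 to 1010 in the Cre groups. Most of the sum was Lyz2, at 556 ± 182 and 411 ± 143 CPM in GFP cells. All 8 were lower with TGF-beta under both viruses, with 2 called under each. With the block 8 were called lower in GFP cells and 7 in Cre cells. The part of macrophages in the responses of the 41 genes was not tested.

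**Figure D2:**
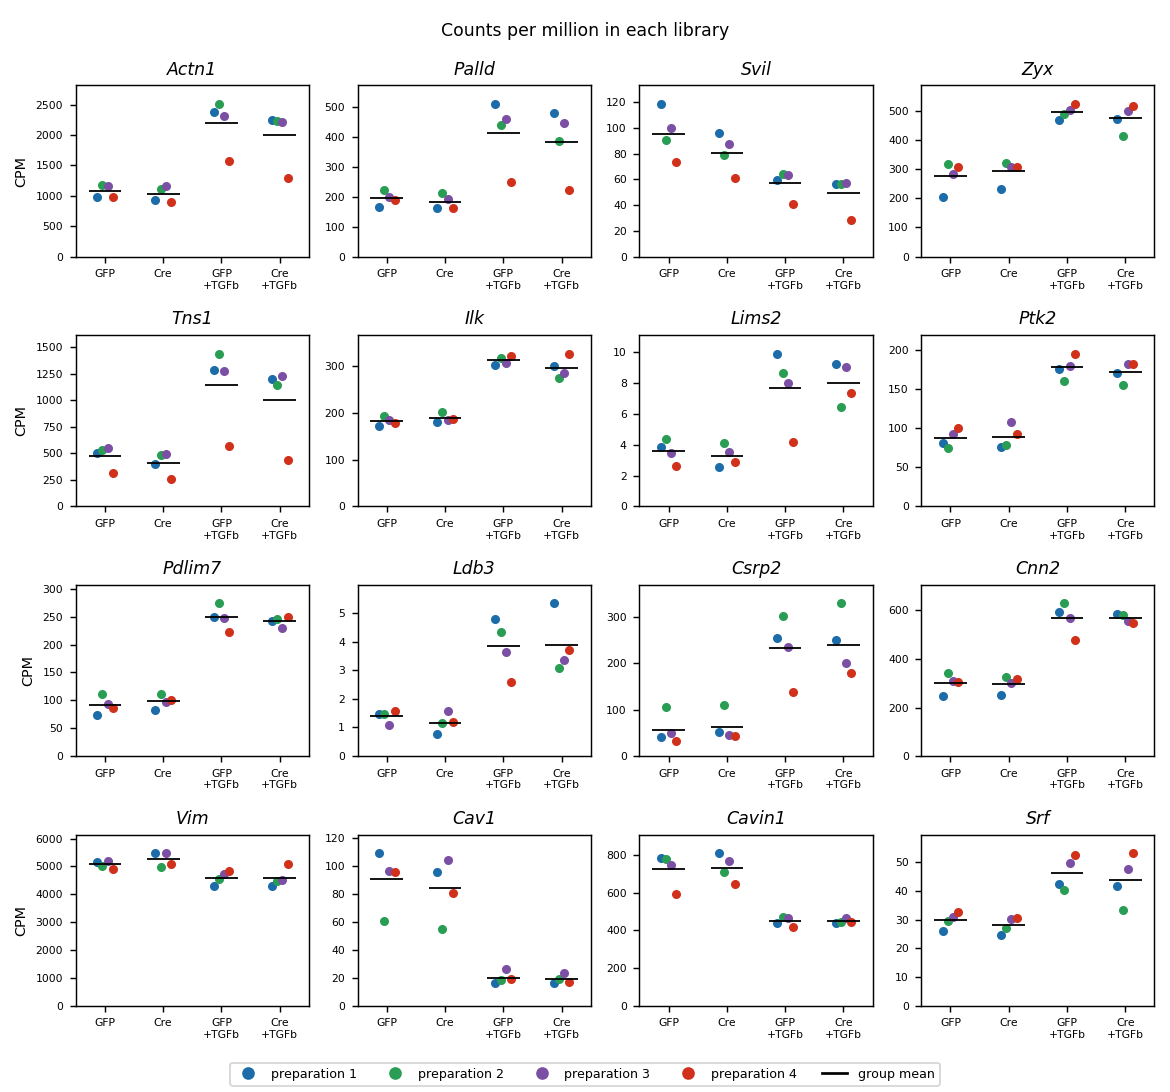
Level in CPM of 16 of the 41 genes in each of the 16 libraries, by group on the x axis, with 1 point a library coloured by preparation and a bar at the group mean. With TGF-beta Actn1 sits between 1296 and 2512 CPM, above all libraries without it, Cav1 sits between 16.3 and 26.2, below them all, and the points of preparation 4 lie low for Tns1 and Svil.

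Srf itself measured 26, 29.6, 30.8 and 32.7 CPM in GFP cells and 42.4, 40.4, 49.6 and 52.6 with TGF-beta, and under the Cre virus 24.8, 27.1, 30.3 and 30.5 without it and 41.6, 33.2, 47.6 and 53.2 with it. Every library with TGF-beta was above every library without, under both viruses. The Srf response was 0.64 ± 0.14 in GFP cells (adjusted p = 0.00299) and 0.64 ± 0.14 in Cre cells (adjusted p = 0.00276). The box that SRF binds, the CArG box, was searched for on both strands in the RefSeq promoter windows of GRCm38.p6, from 250 bases before to 50 after each start. The counts themselves were made on mm39, so these coordinates belong to the older build only. Windows existed for 33 of the 41 genes, and 6 of the 33 held a box (18.2%), against 1.81% of 27025 genes with a window. The 6 are shown because they let the reader set a box beside a response, with the box in capitals and the strand of the gene. Up to 30 bases are given on either side, cut at the edge of the window or at the start of the gene.
Cnn2, chr10:79988514-79988583, plus strand: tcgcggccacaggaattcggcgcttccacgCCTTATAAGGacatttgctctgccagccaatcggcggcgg
Fermt2, chr14:45530230-45530299, minus strand: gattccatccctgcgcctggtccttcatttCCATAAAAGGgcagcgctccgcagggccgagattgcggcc
Fhl2, chr1:43163962-43164022, minus strand: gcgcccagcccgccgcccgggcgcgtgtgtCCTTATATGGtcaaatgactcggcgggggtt
Ldb3, chr14:34588677-34588746, minus strand: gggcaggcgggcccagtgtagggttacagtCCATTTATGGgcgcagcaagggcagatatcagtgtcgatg
Srf, chr17:46556185-46556274, minus strand: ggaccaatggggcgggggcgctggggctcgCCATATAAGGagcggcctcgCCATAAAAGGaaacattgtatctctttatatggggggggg
Vcl, chr14:20929148-20929210, plus strand: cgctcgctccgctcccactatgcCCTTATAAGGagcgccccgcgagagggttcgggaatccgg

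Srf had 2 boxes, 82 and 62 bases before its start, and a second Fhl2 window held a further box. Of these 6 genes, Cnn2, Fermt2, Ldb3 and Srf rose under both viruses, where 23 of all 41 genes did. Fhl2 and Vcl did not pass without the block. With it Vcl was called higher under both viruses and Fhl2 in Cre cells only. Whether genes with a box responded otherwise than those without was not tested. Cnn2 and Vcl carry the same letters in the box, 56 and 227 bases before the start, and had responses of 0.91 ± 0.11 and 0.59 ± 0.30 in GFP cells.  The hexamer GGAATG, which TEAD factors bind, was found on either strand in 9 of the 33 genes (27.3%), against 16.6% of all genes with a window. Such a match is a description of the letters in the window, and binding was not measured here.

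The responses under the 2 viruses were then set side by side. Over the 41 genes the responses in GFP and in Cre cells had a Pearson correlation of 0.99 and a Spearman correlation of 0.98, where the points share preparations but no libraries, and all 41 had the same sign. Over all genes tested these were 0.94 and 0.89. The difference of the responses, Cre minus GFP, had a median of -0.02 over the 41 genes and ranged from -0.15 to 0.31. None of the 41 passed in that comparison by edgeR, with the block or without, or by DESeq2, nor did any of the 15285 genes (0%). At an unadjusted p under 0.05 none of the 41 passed, against 0.589% of all genes without the block and 3.28% with it.

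**Figure D3:**
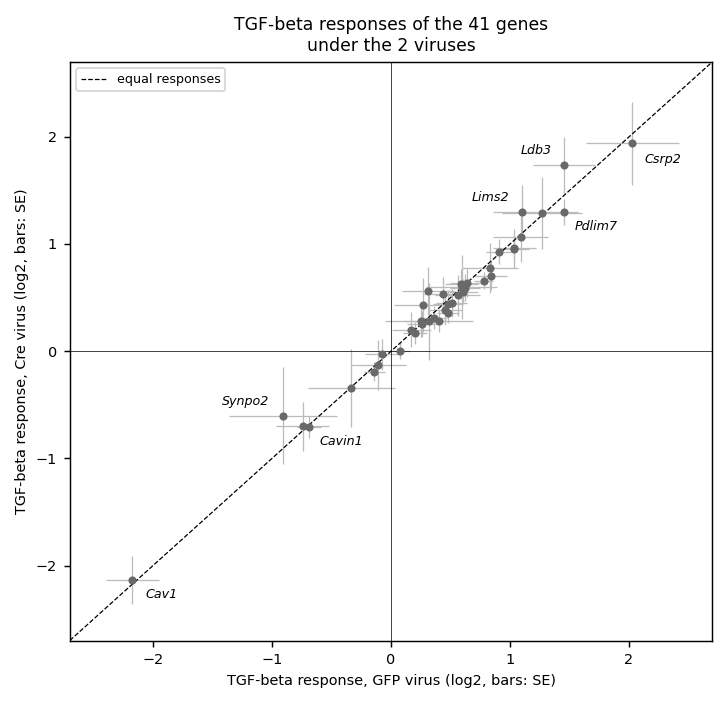
Log2 response to TGF-beta of each of the 41 genes in Cre cells against that in GFP cells, with standard errors as bars and the line of equal responses dashed. The points lie along the line from Cav1 at -2.17 to Csrp2 at 2.03.

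The smallest unadjusted p in that comparison belonged to Ilk, Actn4 and Pdlim7. The Ilk response in Cre cells minus that in GFP cells was -0.12 ± 0.11 on log2 scale (95% interval -0.36 to 0.11). That of Actn4 was -0.13 ± 0.13 (interval -0.40 to 0.15). For Pdlim7 it was -0.15 ± 0.17 (interval -0.51 to 0.21). These intervals all include 0, and after adjustment over all genes each of the 3 stood at 1 by edgeR's quasi-likelihood test. For 24 of the 41 genes the interval of the difference lay within a 1.5-fold change in either direction, and with the block for 34.

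Between the viruses, none of the 41 genes was called without TGF-beta, by edgeR with or without the block or by DESeq2, which called 0.0196% of all genes. No gene of all 15285 was called in the fit with no block (0%), and 0.17% were with it. The median difference of the 41 genes, Cre minus GFP, was -0.06, and the range was -0.32 to 0.13. At an unadjusted p under 0.05, 0 of the 41 passed without the block and 1, Svil, with it, against 1.11% and 5.77% of all genes. No gene of the 41 had non-overlapping groups, against 1.47% of all genes. By unadjusted p the 3 foremost were Tns3, Svil and Tln1, whose libraries are given above, each at an adjusted p of 1 by edgeR. Tns3 differed by -0.19 ± 0.15 (95% interval -0.50 to 0.13) and Tln1 by -0.14 ± 0.14 (interval -0.44 to 0.16). Svil differed by -0.24 ± 0.22 (interval -0.72 to 0.23), and with the block by -0.24 ± 0.10 (interval -0.45 to -0.03, adjusted p = 0.827).

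With TGF-beta, again none of the 41 was called by any of these tests. Over all genes 0% were called without the block and 0.0654% with it. The median difference was -0.07 and the range -0.23 to 0.12. None of the 41 passed at an unadjusted p under 0.05 without the block, against 1.75% of all genes, and 4 did with it, against 13.3%. These 4 were Tln1, Parva, Flnc and Svil, all lower in Cre cells, at -0.23 ± 0.09, -0.15 ± 0.06, -0.23 ± 0.09 and -0.23 ± 0.10 (log2, SE), with adjusted p of 0.308, 0.309, 0.322 and 0.35 by edgeR. No groups were apart for any of the 41, against 1.58% of all genes. Without the block the foremost by unadjusted p was Pxn at -0.13 ± 0.08 (95% interval -0.31 to 0.04). Next were Tln1 at -0.21 ± 0.14 (interval -0.51 to 0.09) and Actn4 at -0.13 ± 0.09 (interval -0.33 to 0.06). With the block, the interval of the Cre difference lay within a 1.5-fold change for 38 of the 41 genes without TGF-beta and for 40 with it, and without the block for 29 in each medium. The exceptions with the block were Synpo2, Ldb3 and Des in the first medium and Des in the second, all among the lowest in level.

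Within preparations, Cre libraries were lower than GFP libraries in all 4 for 13 of the 41 genes without TGF-beta and for 14 with it, and higher in all 4 for none. Over all genes tested, 13.3% and 14.1% were lower in all 4 and 12.7% and 10.1% higher. The Cre difference, taken with its sign, was lower in longer genes. Over the 41 genes the difference with the block and the summed exon length had a Spearman correlation of -0.557 without TGF-beta and -0.387 with it, and over all 15259 genes with a length at -0.379 and -0.282, where all points share the same libraries. The 41 genes are long, with a median of 5390 bases of exon against 4070 over all. With each library's trend on length removed, the median difference of the 41 genes was -0.01 without TGF-beta and -0.06 with it. The part of length in these small differences was not tested further.

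**Figure D4:**
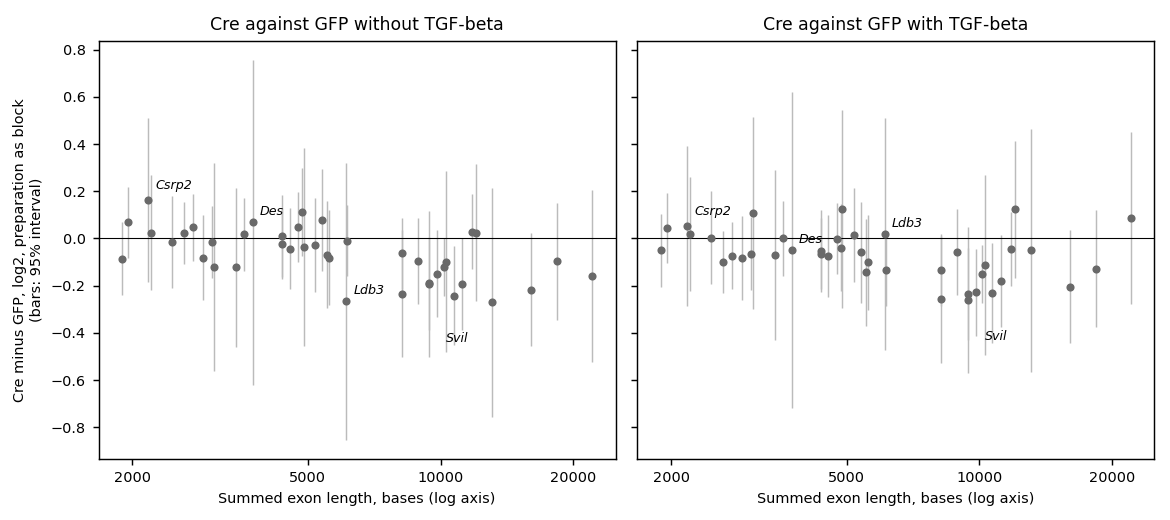
Difference between Cre and GFP cells of each of the 41 genes, on log2 scale with the preparation as a block and 95% intervals as bars, against summed exon length on a log axis, without TGF-beta on the left and with it on the right. Most intervals cover 0, and the longer genes lie lower, Svil among them.

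By the median of the 41 genes, preparation 4 differed from the other 3 by more than the viruses did from each other. In preparation 4 the 41 genes had a median log2 level of -0.23 relative to the other 3 preparations, averaged over groups, against 0.01 for all genes tested. In all 4 groups 21 of the 41 were below the other preparations and 5 above, a count that was not made over all genes. The SD of this difference between genes was 0.37 over the 41 genes and 0.63 over all genes tested. The lowest were Synpo2 at -1.22, Tln2 at -1.13, Tns1 at -1.06, Vcl at -0.89, Parva at -0.73, Csrp2 at -0.73 and Svil at -0.65. Highest were Srf at 0.25, Smtn at 0.21, Vasp at 0.21, Ptk2 at 0.17 and Zyx at 0.15, the 5 that were above in every group. Genes of the same plaque thus differed in opposite directions between preparation 4 and the others. The median response to TGF-beta was nevertheless above 0 in every preparation. In GFP cells it was 0.56, 0.48, 0.45 and 0.38 in preparations 1 to 4, and in Cre cells 0.65, 0.38, 0.54 and 0.38. In all 4 preparations 26 of the 41 genes were higher with TGF-beta and 7 lower in GFP cells, against 28.2% and 31.2% of all genes. In Cre cells 26 were higher and 5 lower, against 25.5% and 29.6%.

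**Figure D5:**
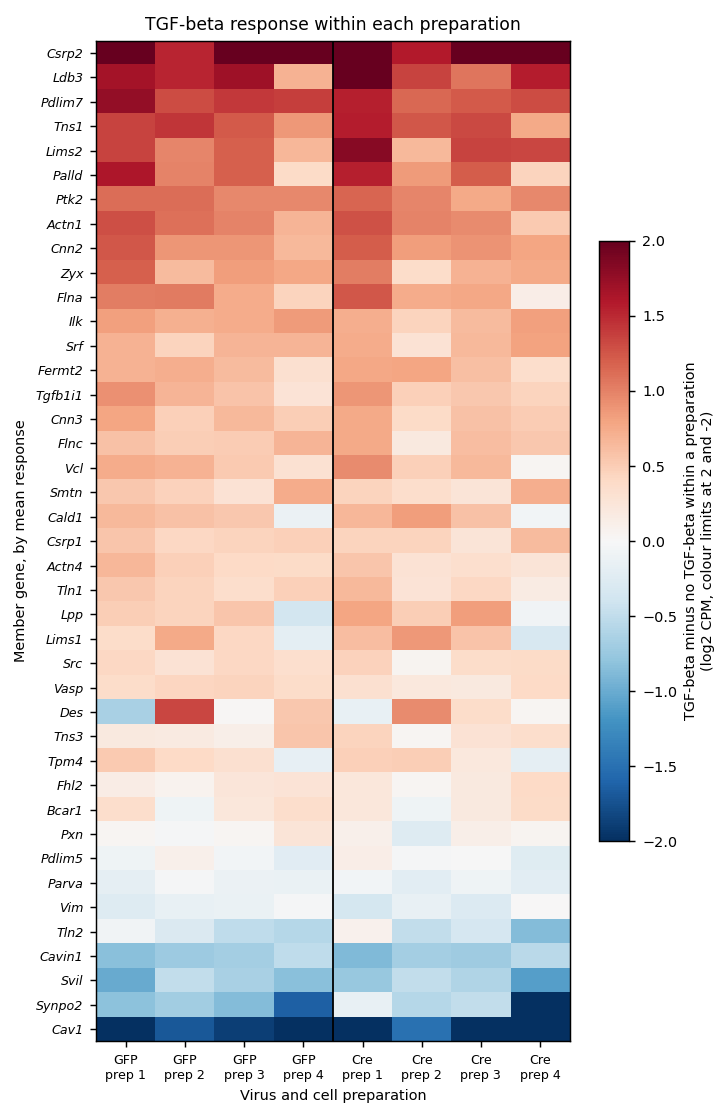
Log2 response to TGF-beta of each of the 41 genes, in rows ordered by mean response, within each preparation (columns, GFP virus on the left and Cre virus on the right), red for higher and blue for lower with TGF-beta, with the colours held at 2 and -2. Most rows keep their colour over the 8 columns, and Cald1, Lpp, Lims1 and Tpm4 turn blue in preparation 4.

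With the preparation as a block, 27 of the 41 genes were raised and 5 lowered in GFP cells, where 22.6% and 26.5% of all genes were. In Cre cells 28 were raised and 6 lowered, against 25.2% and 27.3%. The genes raised in both were then 26 and those lowered in both 5, adding Vcl, Tns3 and Cald1 above and Synpo2 and Tln2 below to those named without the block. Flna, Flnc, Tln1, Vasp, Src and Smtn were among the 26 and Svil among the 5. Their calls, lost above when single libraries were left out without the block, were not lost in any fit with it. The Cald1 call in Cre cells was lost with the block when preparation 2 was left out. The fits with the block left out whole preparations and no single library.

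Other genes of the same machinery were listed by symbol, with earlier results of these data known, as were the 41 genes. Of 48 other adhesion genes tested, 13 rose and 9 fell in GFP cells and 14 and 11 in Cre cells, against 13.8% of all genes higher and 15.3% lower in GFP cells and 14% and 16.3% in Cre cells. The raised share was above that of all genes under both viruses, and in GFP cells the lowered share was near it. With the preparation as a block, 16 rose and 15 fell in GFP cells and 19 and 19 in Cre cells. The shares of all genes were then 22.6% and 26.5% in GFP cells and 25.2% and 27.3% in Cre cells. The median response was -0.04 in GFP cells. Pdlim1, a PDZ-LIM relative of Pdlim7, went from 59.4 ± 13.2 to 261 ± 46.2 CPM in GFP cells (SD, n = 4), a response of 2.14 ± 0.19 (edgeR adjusted p = 1.42e-06). Ptk2b, encoding the kinase Pyk2 that is the relative of focal adhesion kinase, rose by 1.03 ± 0.13 (adjusted p = 3.46e-05), and Enah, the relative of Vasp, by 0.61 ± 0.10 (adjusted p = 0.000297). Vinexin, encoded by Sorbs3 and a partner of vinculin, fell from 179.8 ± 41 to 60 ± 10.5 CPM (log2 -1.58 ± 0.20, adjusted p = 3.94e-05). Fhl1, a relative of Fhl2, fell by a log2 response of -1.70 ± 0.28 (adjusted p = 0.000312) and the PDZ-LIM gene Pdlim2 by -1.01 ± 0.18 (adjusted p = 0.000656). All 6 were called in the same direction in Cre cells.

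Of 43 genes of actin assembly and turnover, 14 rose and 3 fell in GFP cells and 15 and 4 in Cre cells, against the same shares of all genes, 13.8% and 15.3% in GFP cells and 14% and 16.3% in Cre cells. With the block 20 rose and 8 fell in GFP cells, against 22.6% and 26.5% of all genes. In Cre cells 20 rose and 9 fell with it, against 25.2% and 27.3%. The median response was 0.15 in GFP cells. Coro1c, a coronin of the branched actin network, rose by 0.76 ± 0.09 (adjusted p = 1.13e-05), and Dstn, the filament-severing destrin, by 0.88 ± 0.10 (adjusted p = 1.37e-05). Actg1, the cytoplasmic gamma-actin, rose from 1383 ± 226 to 2806 ± 259 CPM (log2 1.02 ± 0.14, adjusted p = 6.68e-05), though actin genes share sequence with each other and with pseudogenes. The 3 that fell in GFP cells without the block were Twf2 at -0.60 ± 0.12 (adjusted p = 0.00124), Pfn2 at -0.38 ± 0.11 (adjusted p = 0.0158) and Tmod3 at -0.40 ± 0.13 (adjusted p = 0.0363). They encode a twinfilin, a profilin and a tropomodulin.

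Of 10 other caveola and intermediate filament genes, 2 rose and 1 fell in GFP cells and 2 and 0 in Cre cells, counts too few to set apart from the 13.8% and 15.3% of all genes in GFP cells and the 14% and 16.3% in Cre cells. With the block 3 rose and 4 fell in GFP cells, where 22.6% and 26.5% of all genes did. In Cre cells 3 rose and 2 fell with it, where 25.2% and 27.3% of all genes did. Nes, encoding the intermediate filament protein nestin, rose from 229.8 ± 91.9 to 1371 ± 228 CPM (log2 2.58 ± 0.28, adjusted p = 9.6e-06), unlike Vim and Des. Pacsin2, a membrane-curving protein of caveolae, rose by 0.35 ± 0.10 (adjusted p = 0.0124), and Cavin2, a relative of Cavin1, fell by a log2 response of -0.60 ± 0.19 (adjusted p = 0.0314) in GFP cells, with -0.43 ± 0.19 and no call in Cre cells (adjusted p = 0.105).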

How the data were processed

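RNA was measured in 16 libraries, 4 in each of 4 groups. The authors deposited raw read counts per gene, whole numbers with no normalization. FastQC 0.10.1 and HTSeq 0.10.0, and the build mm39 (GRCm39), are named in the submitters' processing notes. No source used here names the aligner, the annotation or whether counting used strand, so overlapping and antisense genes are uncertain. Of the 55414 identifiers, 52081 matched a symbol in GENCODE M21 (GRCm38), which also gave exon lengths for RPKM and held 99.9% of the counts.

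Columns were matched to samples by library name. Genes were kept with filterByExpr (minimum count 10, minimum total 15), and TMM factors ranged from 0.908 to 1.12. CPM are counts per 1 M counts of the TMM-scaled library. Tests used edgeR 4.0.16 (R 4.3.3, limma 3.58.1), a robust quasi-likelihood F test with 1 mean per group and no block, Benjamini-Hochberg adjusted over all 15285 genes and called under 0.05. SE is the log2 difference over the square root of F, and intervals are 95%. The script was tested on simulated data.

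Same-numbered libraries share a preparation code in their names. Their deviations from group means correlated in 24 of 24 pairs (r from 0.323 to 0.838), against a maximum of 0.292 over 72 other pairs. The block was therefore set beside the results where it changed a call. P-values of the fit with no block treat the libraries as independent, so differences in level between preparations enter their error. Those of the fit with the block reflect how the responses vary over these 4 preparations. Libraries of a group all differed by more than sampling noise (chi-square per gene at least 6.83).

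The 41 genes, the other lists and the naming rule were chosen with earlier results of these data known. Values in every library are printed for genes called under both viruses with a log2 change of at least 1 in GFP cells, up to 4 with the largest fall, the gene of smallest adjusted p in each role group, and up to 3 of smallest p in each comparison of the viruses. Cald1 was added after its values were seen. From each of 3 other lists (1 further list is not reported here), up to 3 called genes per direction with the smallest adjusted p in GFP cells are named. Alternatives were DESeq2 1.42.0, RLE factors, other filters, fewer libraries, sex as a covariate, a length correction with the block, and leaving out libraries or preparations.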

Additional observations from a re-analysis of the deposited data

Results flagged for a closer look

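In 14 of the 164 sets of 4 libraries (41 genes in 4 groups), the highest or lowest library stood apart from the other 3 by Dixon's rule, where chance alone gives about 8. Of the 14, 9 were libraries of preparation 4, all low. In the Cre group with TGF-beta, library 4 was low for Actn1 at 1296 CPM, Cald1 at 1390, Svil at 28.2, Tns1 at 439 and Tpm4 at 1007. The other 3 libraries of that group ranged from 2220 to 2250 CPM for Actn1 and from 1141 to 1233 for Tns1. In the GFP group with TGF-beta, library 4 was low for Flna at 1990 CPM and Parva at 373. In the Cre group it was low for Parva at 385 CPM, and in the GFP group for Tns3 at 226. Of the other 5, library 1 was low for Actn4 in the GFP group at 549.9 CPM and for Zyx in the Cre group at 231, and high for Des in the Cre group at 1.78. Library 2 of the Cre group was high for Csrp2 at 109.5 CPM, and library 3 of the Cre group with TGF-beta was high for Cavin1 at 466, where the others lay between 441 and 444. The cause of these values was not tested.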

How the results depend on the processing

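The numbers of the 41 genes raised by TGF-beta stayed within 1.5 times under all 29 alternatives, from 20 to 29 in GFP cells and from 17 to 30 in Cre cells, against 23 and 24. Over these settings 6% to 25.6% of all genes were raised in GFP cells and 5.86% to 28% in Cre cells, against 13.8% and 14%. The number lowered moved with the preparation as a block, as did the share of all genes lowered, and the cause was not tested. In GFP cells it went from 3 to 5 with the replicate block, to 5 with the block and the length trend removed, to 5 with the block and without preparation 1, and to 6 with the block and without preparation 4. In Cre cells it went from 3 to 6, 5, 5 and 6 under the same settings. The share of all genes lowered in GFP cells went from 15.3% to 26.5%, 26.1%, 20.5% and 27.7% under these settings. For Cre cells that share went from 16.3% to 27.3%, 27.6%, 22.6% and 28.6%. No other count moved by over 1.5 times, and the block made no gene of the 41 differ between the viruses. Under every alternative that gave a value, 0 of the 41 genes differed between the viruses or in the difference of responses, and the fit on only the libraries compared gives no separate value for the latter. No called response changed sign. Among single genes, 15 of 1187 values in GFP cells lost a call (4 genes) and 40 gained one (11 genes), and in Cre cells 67 (8 genes) and 46 (10 genes). Under the filter of 5 CPM in at least 4 libraries, 39 of the 41 genes were tested. Leaving out preparation 4 with no block was added after seeing the data.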
